A study of Homo sapiens with 4 samples.

Results

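Genes with several protein-coding transcripts were compared for the mix of transcripts they carried in A549, a human lung adenocarcinoma cell line, with and without knockdown of the RNA-binding protein RBM4. A gene was included when the deposited table listed 2 or more of its transcripts and their FPKM (fragments scaled by transcript length and library size) summed to 5 or more in both libraries. This gave 7793 of 19758 genes and 44416 of 79989 transcripts, with a median of 5 and at most 63 transcripts per gene. Another 4769 genes had a single listed transcript and 7196 had several but stayed under 5 FPKM in at least 1 library. The genes nearest the limit were ZNF446 (5.002 FPKM in the control, 5.264 in the knockdown) just inside and AMN1 (4.997 and 5.931 FPKM) just outside.

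The series holds 4 samples from the lines A549 and H1299, each line as a control and as a knockdown of RBM4, with 1 library per group. Cells grew in medium with serum, and a TruSeq kit turned their total RNA into libraries. The labels call the knockdown sample sh, give no sequence or promoter for the knockdown construct, do not say what the control cells received, and name no clone. Any difference below describes 2 libraries and has no replicate error and no p-value. H1299 was not analysed here.

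RBM4 is an RNA-binding protein that binds exons and introns of pre-mRNA and can favour either the inclusion or the skipping of an exon. Alternative splicing joins different sets of exons of a gene, and alternative promoters and poly(A) sites give transcripts with different beginnings and ends. Some of these choices alter the protein and others only the untranslated regions. Several actin-binding, cell adhesion and cell-death genes are textbook cases in which isoforms of a gene act differently.

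The summed level of RBM4 itself was 59.4 FPKM in the control library and 30.6 FPKM in the library read as knockdown. Paired values from here on are given in the order control, knockdown. The leading transcript, RBM4-201, was at 23.8 and 8.04 FPKM, and RBM4-202 at 1.08 and 3.08 FPKM. Its transcripts share exons with another gene, so their separate values are uncertain. Of 16 markers of A549 (keratins, aldo-keto reductases and lung genes) 11 reached 1 FPKM in both libraries, with a summed level of 15861 and 10461 FPKM, and SFTPB, SFTPA1 and NKX2-1 were listed at 0 in both. The summed level of 8 fibroblast markers was 8.67 and 36.5 FPKM, with COL1A1 at 2.61 and 9.47 and THY1 at 5.73 and 26.0 FPKM. Of 7 blood and immune markers only CD14 reached 1 FPKM in both libraries, and none of 4 endothelial markers did. The part of these marker differences in the isoform values was not tested.

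For every gene the share of each transcript was its percentage of the gene's summed FPKM, and the share moved was the sum of the shares lost by the transcripts that lost, which equals the sum gained by the others, in percentage points. A value of 0 means the same mix and 100 a complete exchange. Over the 7793 genes the median share moved was 7.78 points (interquartile range 3.29 to 14.3), and the highest was 99.7. At least 30 points had moved in 344 genes (4.41%), at least 20 points in 1045 (13.4%) and at least 50 points in 36 (0.462%). The most abundant transcript differed between the libraries in 743 genes (9.53%).

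Movement was most frequent in genes with low levels and many transcripts. In genes whose lower library held 5 to 10 FPKM, 9.29% had at least 30 points moved. The share was 4.996% at 10 to 20 FPKM, 1.72% at 20 to 50 FPKM and 0.776% at 50 to 100 FPKM, and none of the 553 genes at 100 FPKM or more reached 30 points. Of genes with 2 transcripts 0.819% reached it, and of genes with 11 or more 14.4% did. Of genes whose total differed 2-fold or more after 1 FPKM was added to both totals, 30 of 335 had 30 points moved (8.96%). Of the others 4.21% did, while the medians were 7.58 and 7.79 points.

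**Figure D1:**
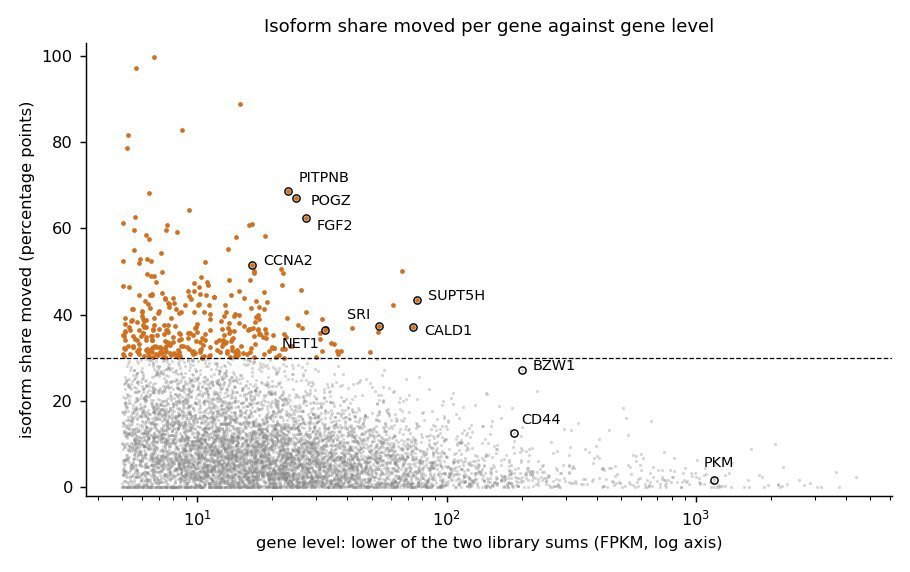
Isoform share moved (percentage points) against gene level (the lower of the 2 library sums, FPKM, log axis), 1 point per gene, with the 344 genes at 30 points or more in orange above the dashed line. The cloud narrows as level increases, and no gene at 100 FPKM or more lies above the line; BZW1 comes nearest at 27.2 points.

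The 344 genes differed in what was exchanged. In 236 (68.6%) at least 30 points moved between different coding sequences, and in 17 under 5 points did, so that the exchange lay in untranslated exons or in near-identical models. At least 30 points moved between first exons in 133 and between last exons in 108, both in 53 and neither in 156. Over all genes with an annotated structure, 237 (3.04%) moved 30 points between coding sequences, 135 (1.73%) between first exons and 109 (1.4%) between last exons. The first exons with the larger gain lay downstream of those with the larger loss in 76 of the 135 genes and upstream in 59. For last exons the counts were 58 downstream and 51 upstream.

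Some of the exchanges involved short transcript models. In 144 of the 344 genes the transcript that gained most or the one that lost most is annotated as incomplete. In 110 genes either of them is under 600 bases, and short models receive a high FPKM per fragment. POGZ, a zinc finger chromatin protein, had 67.0 points moved, and a 199-base incomplete transcript was listed at 0 and 47.7 FPKM. Without incomplete transcripts its value was 9.11 points. In EPB41L1, a membrane cytoskeleton protein, a 210-base incomplete transcript was at 47.6 and 0 FPKM, and its 42.2 points moved became 17.1 without such models. Other views were therefore set beside the first: shares of fragments (FPKM times length), shares without transcripts under 1 FPKM, and shares without incomplete transcripts. A total of 146 genes (42.4% of the 344) stayed at 30 points in all of them. At 20 FPKM or more in both libraries 43 of 3479 genes had 30 points moved (1.24%), and 16 of these stayed. The 12 of those 16 that share no exon with another gene were PITPNB, FGF2, MRPL55, SLC29A1, SUPT5H, ATP2C1, CALD1, NET1, GIPC1, COMMD10, NUDT1 and SLC39A11; this group was assembled after the values had been seen.

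Skipped coding exons gave the clearest exchanges to read, and the exons below are printed because the transcripts that gained and lost share differ by them. Each is shown 5′ to 3′ on the transcript strand (GENCODE release 29, GRCh38), the exon in capitals between 15 bases of each neighbouring exon.
SUPT5H, chr19:39458294-39458305, plus strand, 12 nt: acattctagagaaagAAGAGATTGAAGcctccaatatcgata
SRI, chr7:88218859-88218942, minus strand, 84 nt: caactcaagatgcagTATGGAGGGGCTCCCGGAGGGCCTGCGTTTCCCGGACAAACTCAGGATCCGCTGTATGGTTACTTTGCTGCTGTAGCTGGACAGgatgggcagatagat
NAE1, chr16:66826677-66826780, minus strand, 104 nt: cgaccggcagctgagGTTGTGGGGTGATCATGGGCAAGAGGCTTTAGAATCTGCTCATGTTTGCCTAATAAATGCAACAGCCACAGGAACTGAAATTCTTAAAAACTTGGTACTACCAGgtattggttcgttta
ZMYND11, chr10:221195-221356, plus strand, 162 nt: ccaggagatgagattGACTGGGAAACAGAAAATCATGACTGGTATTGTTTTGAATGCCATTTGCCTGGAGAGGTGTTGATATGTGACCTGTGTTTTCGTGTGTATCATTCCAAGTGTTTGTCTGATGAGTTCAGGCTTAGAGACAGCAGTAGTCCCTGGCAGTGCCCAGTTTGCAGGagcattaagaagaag
CLNS1A, chr11:77625717-77625818, minus strand, 102 nt: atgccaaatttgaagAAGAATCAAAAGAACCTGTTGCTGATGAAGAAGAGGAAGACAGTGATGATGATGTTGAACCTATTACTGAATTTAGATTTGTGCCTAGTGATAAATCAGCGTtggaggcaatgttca

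Inclusion of a cassette exon was the FPKM of transcripts with the exon over that of transcripts with it or skipping it between the same neighbouring splice sites. SUPT5H encodes SPT5, a subunit of the DSIF elongation factor of RNA polymerase II. Its transcripts with the 12-nt exon summed to 35.3 and 4.28 FPKM, and those without it to 27.2 and 53.1 FPKM. Inclusion was therefore 56.4% in the control library and 7.46% in the knockdown library, while the gene's total was nearly the same (76.2 and 78.9 FPKM). The exon adds bases in a multiple of 3, so the reading frame continues in both forms. The transcript that lost most, ENST00000432763, held 46.3% and 5.43% of the gene.

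SRI encodes sorcin, a calcium-binding protein of the penta-EF-hand family. Between the same neighbouring splice sites, transcripts with its 84-nt exon were at 37.2 FPKM and those without at 0 in the control. In the knockdown 20.4 FPKM included it and 21.1 FPKM skipped it, an inclusion of 49.2%. Among all transcripts that span the exon, whatever the neighbouring sites, the fall was smaller. There it was carried by 53.6 of 53.6 FPKM and by 35.7 of 56.8 FPKM, 100% and 62.8%. The skipping form was a single transcript, ENST00000490437, listed at 0 in the control. The share moved of SRI was 37.5 points by FPKM but 21.8 by fragments. Its long transcript ENST00000265729, which weighs more in fragments, was at 16.4 and 15.3 FPKM.

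NAE1 is the regulatory subunit of the NEDD8-activating enzyme. Its transcripts with the 104-nt exon were at 26.5 and 13.6 FPKM, and those without at 13.9 and 20.1 FPKM, so inclusion was 65.7% and 40.3%. ZMYND11 is a chromatin reader of histone H3.3 lysine methylation, and inclusion of its 162-nt exon was 76.4% in the control and 52.0% in the knockdown. CLNS1A, the pICln chaperone of spliceosomal Sm proteins, went the other way: its 102-nt exon was included in 49.7% of the control and 70.7% of the knockdown FPKM. These 3 exons lie below 30 points and were picked, after their values had been seen, among exons with 20 FPKM or more over the event in both libraries.

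Across 8358 cassette exons, inclusion was at least 30 points higher in the knockdown for 33 (0.395%) and at least 30 points lower for 32 (0.383%). At 15 points the counts were 239 higher and 224 lower, and the median difference was 0, so both directions were about equally frequent. Fully coding exons made up 42.4% of the 33 and 43.8% of the 32, against 68.1% of all cassette exons with a sequence. Lengths that are a multiple of 3 made up 33.3%, 59.4% and 59.9% in the same order. The motif CGCG, which matches sequences reported for RBM4 binding, was searched within the exon on the transcript strand only. It was present in 3 of the 33 (9.09%), 4 of the 32 (12.5%) and 7.19% of all.

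**Figure D2:**
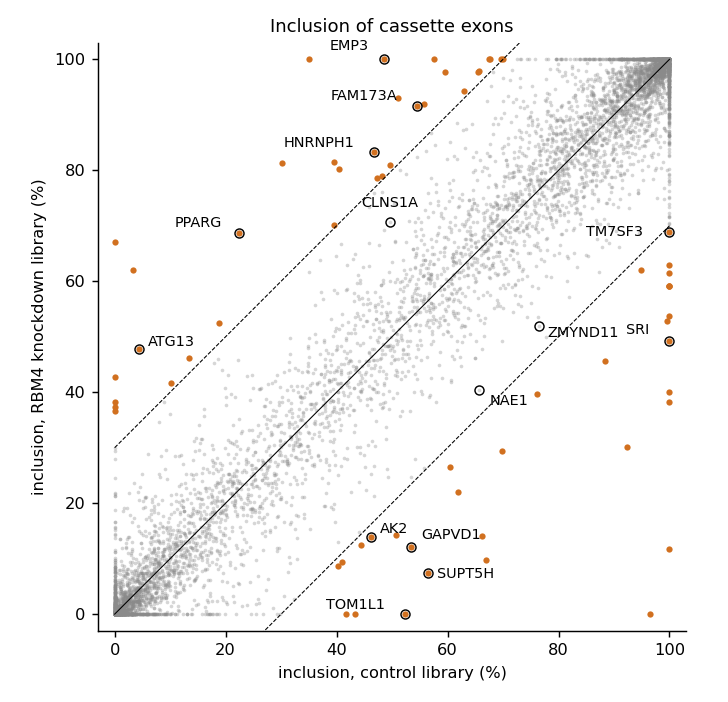
Inclusion of 8358 cassette exons in the control library (x axis, %) against the RBM4 knockdown library (y axis, %), with exons 30 points or more apart in orange outside the dashed lines. The points fall on both sides of the diagonal in similar numbers (33 above, 32 below), and SUPT5H (56.4% and 7.46%) lies far below it.

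Other exons past 30 points lay in untranslated regions or rested on short models. In PPARG, the nuclear receptor that drives fat cell genes, a 74-nt exon of the 5′ untranslated region was included in 22.5% of the control and 68.8% of the knockdown FPKM, with the same coding sequence. The FPKM with that exon were 3.65 and 13.7, and those without it 12.6 and 6.24. HNRNPH1, a splicing factor, had inclusion of a 92-nt exon of 46.8% and 83.3%, but this event could not be measured once incomplete transcripts were left out. Among all transcripts that span this exon, the 92-nt form was carried by only 13.0% and 23.8% of the FPKM. An overlapping 139-nt form, left out of the cassette value, was carried by 72.2% and 69.6%. TM7SF3, a seven-transmembrane protein, had 100% and 68.9% for a 153-nt exon; the skipping form was a 244-base incomplete transcript, and by fragments inclusion was 100% and 96.0%.

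PITPNB, a phosphatidylinositol transfer protein, had the highest share moved among genes at 20 FPKM or more that share no exon with another gene, 68.7 points. ENST00000455418 was at 16.2 and 1.36 FPKM, and ENST00000335272 at 3.56 and 19.4 FPKM. Their shares were 69.2% against 5.90% and 15.2% against 83.9%, with an almost equal total (23.4 and 23.1 FPKM). The coding sequences of this pair have the same length, 813 bases, and part at an 8-nt stretch that comes either from a separate 8-nt exon or from the 5′ end of the next exon. The stretch is shown in capitals with 15 spliced bases on either side, because the exchange turns on it.
PITPNB-202, chr22:27897130-27897137, minus strand: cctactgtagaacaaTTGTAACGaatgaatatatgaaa
PITPNB-205, chr22:27896627-27896634, minus strand: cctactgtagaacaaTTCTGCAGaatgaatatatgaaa
The stretches differ at 4 of 8 bases. How the reads were placed on them was not tested.

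COMMD10, of a family that acts in endosomal sorting, had 34.8 points moved between annotated coding sequences of 606 and 564 bases. These models have the same introns and nearly the same length (1469 and 1433 bases). The first, ENST00000274458, was at 12.1 and 4.26 FPKM, and the other, ENST00000632434, at 10.6 and 18.3 FPKM. ATP2C1, the Golgi calcium and manganese pump, had 40.7 points moved over 18 transcripts. There ENST00000428331 was at 3.42 and 0 FPKM, and ENST00000504948 at 2.16 and 8.26 FPKM.

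**Figure D3:**
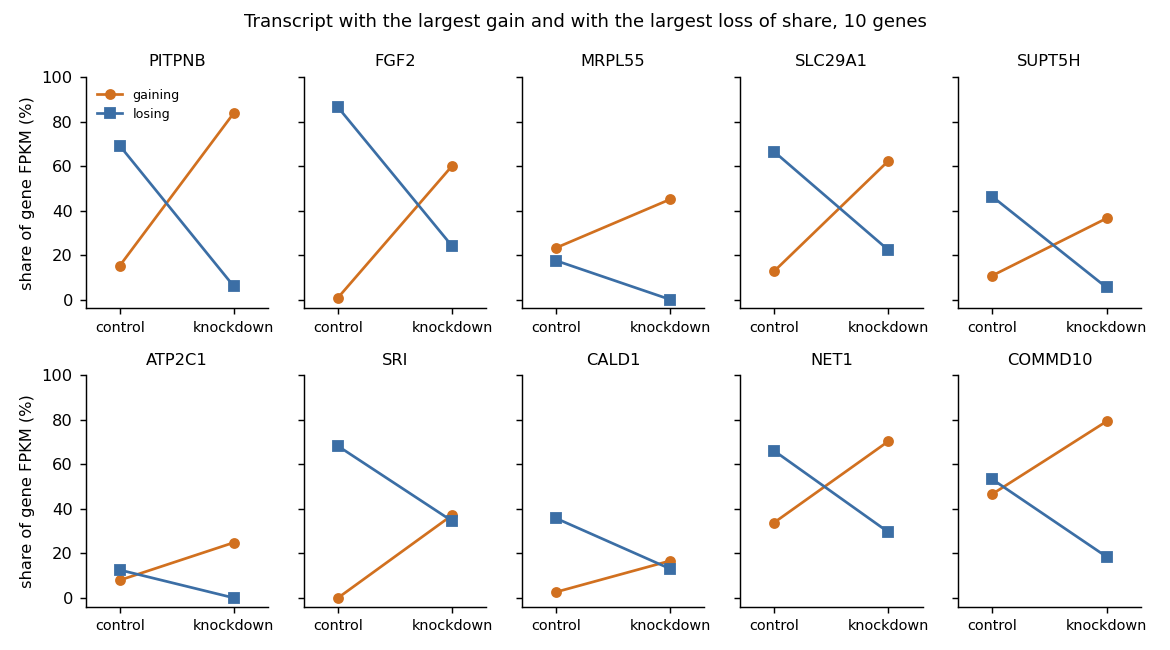
Share of the gene's FPKM (%) in the control and knockdown libraries for the transcript that gained most (orange circles) and lost most (blue squares) in 10 genes. The lines cross in every gene but MRPL55, where the gaining transcript leads in both libraries (23.3% and 45.1%), and the steepest pair is that of PITPNB (gaining 15.2% and 83.9%).

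Exchanges of first exons are given by the annotated starts of the transcripts, and the use of different promoters was not tested. NET1 is a guanine nucleotide exchange factor for RhoA. Its upstream start at chr10:5412551 gave ENST00000355029, at 21.6 and 13.1 FPKM. A downstream start at chr10:5446609 gave ENST00000380359, at 11.1 and 31.3 FPKM. The upstream share was 66.1% and 29.6%, and the downstream share 33.9% and 70.4%. The upstream form encodes 1788 coding bases and the downstream form 1626, so the proteins differ at the amino end.

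SLC29A1, the equilibrative nucleoside transporter ENT1, exchanged starts with the same coding sequence in the main pair. Starts at chr6:44219505 summed to 16.8 and 6.48 FPKM, and the start at chr6:44223504 was at 2.92 and 13.7 FPKM. The shares were 73.6% and 29.4% for the upstream site and 12.8% and 62.4% for the downstream one. In HDGF, a secreted growth factor at over 100 FPKM, 21.9 points moved between starts close together, again with the same coding sequence in the main pair (ENST00000357325, 59.7% and 81.1%; ENST00000537739, 32.5% and 14.4%).

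In FGF2, a fibroblast growth factor, 62.4 points moved but only 3.16 between coding sequences. ENST00000264498, of 6775 bases, was at 23.5 and 13.2 FPKM. ENST00000614010, of 867 bases and hardly more than the coding sequence, was at 0.22 and 33.1 FPKM. By fragments 33.2 points moved. CCNA2, which encodes cyclin A2, had 51.5 points moved between 2 models of 2797 bases with the same introns and coding sequence (ENST00000274026 at 16.4 and 0.09 FPKM, ENST00000618014 at 15.2 and 16.5). Between coding sequences, first exons and last exons its value was 0. MRPL55, a mitochondrial ribosomal protein, and GIPC1, an adaptor protein, had 50.5 and 36.1 points moved but only 5.85 and 2.62 between coding sequences. In GIPC1 an 88-nt exon was carried by 61.3% of the control and 97.0% of the knockdown FPKM of transcripts that span it.

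Gene lists are described by their counts and medians, with no test. The list of 36 genes with splicing linked to epithelial or mesenchymal state had 33 measured members and a median share moved of 14.96 points, against 7.78 over all genes. Of its members 2 reached 30 points (6.06%), where 4.41% of all genes did. Apoptosis regulators had a median of 12.1 (30 members, 2 at 30 points) and splicing factors 7.58 (59 members, 0 at 30 points). Reported RBM4 targets had 6.70 (11, 1), cell cycle and senescence regulators 5.92 (32, 2), and actin and contractile genes 5.51 (33, 2). Secreted and matrix genes had 4.65 (27, 1), glycolysis and energy sensing 3.69 (27, 1) and cytosolic ribosomal proteins 1.21 (73, 0). Each list thus held 0 to 2 genes at 30 points, too few to set its share apart from the 4.41% over all genes. The median number of transcripts per gene was 9 and the median lower-library level 37.4 FPKM in the first of these lists, against 5 and 17.5 over all genes, so these medians are not matched for transcript number.

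**Figure D4:**
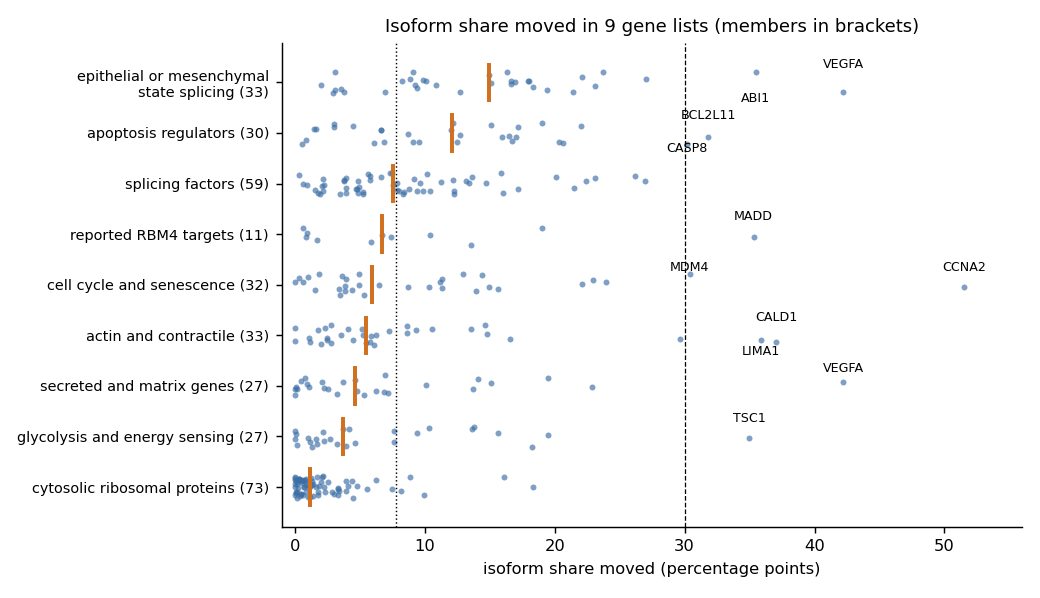
Isoform share moved (percentage points) of the members of 9 gene lists, 1 blue point per gene, with list medians as orange bars, the median of all 7793 genes as a dotted line (7.78) and the 30-point limit dashed. The epithelial or mesenchymal splicing list has the highest median (14.96) and ribosomal proteins the lowest (1.21).

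Among genes whose splicing is linked to epithelial or mesenchymal state, the exon with the largest difference in each gene was taken, as the FPKM of transcripts with the exon over that of all transcripts spanning it. All 33 genes had such a variable exon. The difference reached 10 points in 14 genes, 8 with higher and 6 with lower inclusion in the knockdown, and stayed under 5 points in 8. KIF21A was counted as lower through a 159-nt form of an exon (11.5% and 1.46%). An overlapping 135-nt form was higher by the same amount (88.5% and 98.5%), so the direction given to KIF21A is arbitrary. These 14 are 42.4% of the list's genes, against 25.7% of the 5113 genes with such an exon in the whole table. Counted by exon, 23 of 151 variable exons of the list reached 10 points (15.2%), against 15.3% of all 15840, so by exon the list was at the background. CTNND1 encodes p120-catenin, which holds cadherins at the membrane, and its long forms are typical of mesenchymal cells. Its 289-nt exon was carried by 48.8 of 68.1 FPKM and by 29.6 of 54.98 FPKM, 71.6% and 53.8%. An overlapping 182-nt form of that exon was at 4.90% and 11.5%, so part of the fall is an exchange between forms of the exon. The long transcript ENST00000358694 had 47.8% and 33.1% of the gene, and the shorter ENST00000529986 10.4% and 20.3%. CTNND1 shares exons with another gene.

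CD44, the hyaluronan receptor, is made as a standard form and as forms with variable exons, which are typical of epithelial cells. The standard transcript ENST00000263398 was at 93.7 and 167 FPKM, 50.4% and 53.9% of the gene. Transcripts with the 204-nt variable exon were at 22.3 and 14.7 FPKM, and inclusion was 14.4% and 6.14%. The neighbouring variable exons of 102 and 90 nt were both at 7.68% and 2.30%. Over the whole gene 12.7 points moved. Fibronectin (FN1) had a 273-nt exon at 21.2% and 14.9% and a 270-nt exon at 27.4% and 24.5%, lengths that match the extra domains B and A.

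The exon with the largest difference in the list was a 15-nt exon of ABI1, an adaptor of the WAVE actin regulator, at 8.01% in the control and 34.6% in the knockdown. These percentages rest on low levels, 1.42 of 17.8 FPKM in the control and 8.01 of 23.2 FPKM in the knockdown. MBNL1, itself a splicing factor, had a 95-nt exon at 73.4% and 90.1%. In ENAH, SLK and CTTN the largest differences were 1.31, -1.99 and -0.415 points. The exons of ABI1, MBNL1 and CD44 are printed because their inclusion is described, in the layout used above. The printed ABI1 exon is not among those by which its gaining transcript ENST00000376166 and losing transcript ENST00000376139 differ.
ABI1, chr10:26771075-26771089, minus strand, 15 nt: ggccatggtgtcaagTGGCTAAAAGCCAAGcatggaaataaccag
MBNL1, chr3:152456267-152456361, plus strand, 95 nt: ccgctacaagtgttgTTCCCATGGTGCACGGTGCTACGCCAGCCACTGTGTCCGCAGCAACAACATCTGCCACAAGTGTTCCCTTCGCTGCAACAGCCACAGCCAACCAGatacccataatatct
CD44, chr11:35211246-35211449, plus strand, 204 nt: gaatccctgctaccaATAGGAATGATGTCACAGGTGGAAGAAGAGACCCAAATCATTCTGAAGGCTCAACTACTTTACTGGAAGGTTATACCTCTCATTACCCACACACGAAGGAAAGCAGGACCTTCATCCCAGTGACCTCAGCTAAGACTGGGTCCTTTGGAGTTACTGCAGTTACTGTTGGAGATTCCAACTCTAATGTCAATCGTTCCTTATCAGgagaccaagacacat

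**Figure D5:**
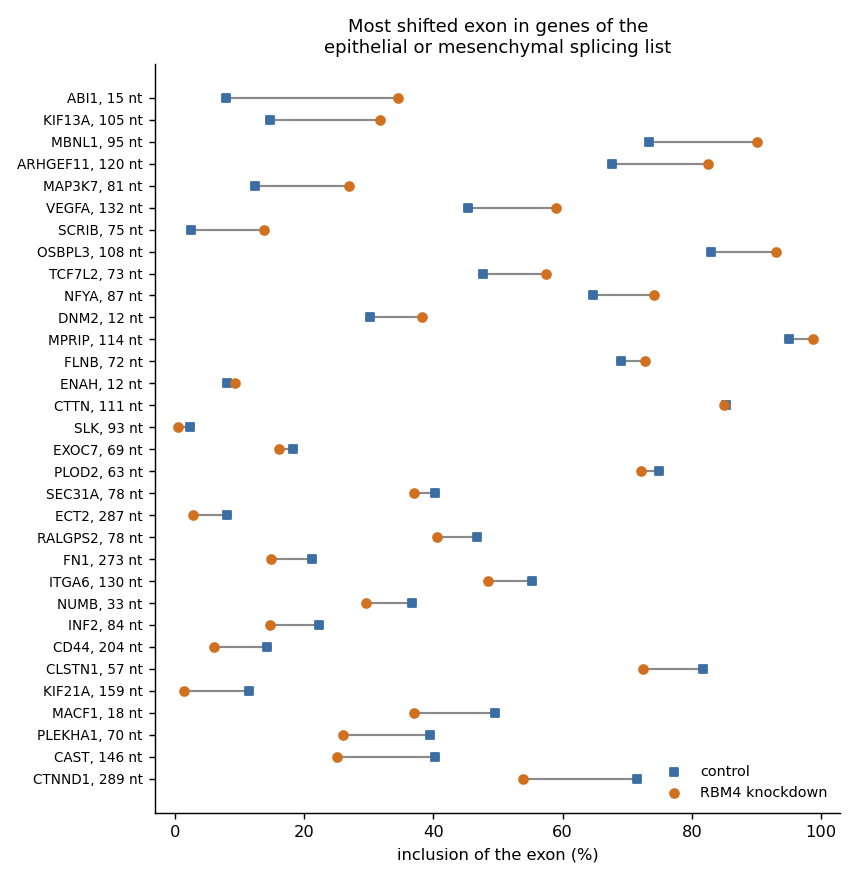
Inclusion (%) of the most shifted exon in 32 of the 33 genes with splicing linked to epithelial or mesenchymal state, control as blue squares and RBM4 knockdown as orange circles, exon length in nt beside the gene. Differences run in both directions, from ABI1 (8.01% to 34.6%) at the top to CTNND1 (71.6% to 53.8%) at the bottom.

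VEGFA had the highest share moved of that list and of the secreted genes, 42.2 points. VEGFA, the growth factor of blood vessels, had ENST00000372067 at 0.00224 and 8.53 FPKM, 0.0173% and 36.7% of the gene. ENST00000615393 was at 6.55 and 8.30 FPKM, 50.7% and 35.7%. The gene has 23 listed transcripts and summed to 12.9 and 23.2 FPKM, so each share rests on a low level, and by fragments the share moved was 69.7 points. TCF7L2, MAP3K7 and MACF1 had 27.0, 23.7 and 21.4 points moved.

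Actin genes held one large exchange at a high level. CALD1 encodes caldesmon, which binds actin, myosin and tropomyosin, and its total was 73.6 and 155 FPKM. Its starts near chr7:134779625 gave 29.1 and 105 FPKM, and those at chr7:134891400 gave 26.3 and 20.3 FPKM. The share of the starts near chr7:134779625 was 39.6% and 67.7%, and that of the start at chr7:134891400 was 35.8% and 13.1%. Starts close to the latter, at chr7:134891610, held 15.2% and 0.859%. A start further upstream, at chr7:134745467, held 7.83% and 12.9%. The transcript that gained most was a 558-base incomplete model, at 2.65% and 16.7%. Within the gene a 78-nt coding exon was carried by 45.3% and 29.98% of spanning FPKM. The 1090-nt form of another exon, which encodes the long middle part of smooth muscle caldesmon, was at 4.80% and 10.2%.
CALD1, chr7:134935688-134935765, plus strand, 78 nt: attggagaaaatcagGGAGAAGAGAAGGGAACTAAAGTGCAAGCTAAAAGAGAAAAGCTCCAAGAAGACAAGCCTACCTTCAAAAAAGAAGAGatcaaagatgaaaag
LIMA1, an actin-bundling protein, had 35.9 points moved between starts at a lower level. Its upstream start at chr12:50283484 had 64.3% and 28.4% of 6.04 and 27.2 FPKM, and a start at chr12:50222348 had 0.0168% and 27.98%. Moesin (MSN), with 149 and 277 FPKM, had 0 points moved.

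Tropomyosin 1 (TPM1) is among the reported RBM4 targets and 13.6 points moved in it. ENST00000358278 was at 176 and 430 FPKM, 59.7% and 66.5% of the gene. ENST00000404484, of 943 bases, was at 27.4 and 0 FPKM. Of a pair of neighbouring 126-nt exons near the start of the gene, the upstream one was carried by 13.4% and 11.1% of the FPKM that spans it and the downstream one by 93.9% and 97.2%. Some models carry both. Measured as a cassette exon, within the transcripts that carry the upstream exon, the downstream exon was included at 17.6 and 47.1 FPKM and skipped at 13.3 and 12.8 FPKM, an inclusion of 57.0% and 78.6%. The 76-nt pair further on was at 80.4% and 78.8%, and 19.6% and 21.0%. TPM2 had 5.86 points moved.

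Of the other reported targets, BCL2L1 had 19.0 points moved but only 7.68 between coding sequences. BCL2L1 makes the anti-apoptotic Bcl-xL from the long form of its coding exon and Bcl-xS from a form that ends at an upstream splice site. The long exon (694 nt) was carried by 86.9% and 85.7% of spanning FPKM and the short one (505 nt) by 10.4% and 8.93%. Spanning transcripts held only 56.7 of 129.9 FPKM in the control and 59.9 of 156.8 FPKM in the knockdown. Left out was the transcript that gained most, ENST00000376062, of 699 coding bases, with 18.5% and 26.4% of the gene. These percentages therefore do not give the direction of Bcl-xL over the whole gene. MADD, a regulator of Rab GTPases and of cell death, had 35.3 points moved, the only reported target past 30. Its ENST00000402799 was at 4.29 and 1.31 FPKM, and ENST00000407859 at 0 and 2.10 FPKM. A 60-nt exon of MADD was carried by 8.09% and 24.7% of spanning FPKM, with a gene total of 12.8 and 15.3 FPKM.

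PKM, the pyruvate kinase gene, is a known splicing model, and here its main transcript ENST00000335181 was at 1139 and 1095 FPKM, 91.3% and 92.9% of the gene. The share moved was 1.73 points. MCL1 had 0.87 points moved, SRSF1 0.64 and SRSF3 0.92, while TEAD4 had 6.70 and the splicing repressor PTBP1 10.4. MAPT, INSR and FGFR2 stayed under 5 FPKM (1.57 and 1.59, 4.68 and 4.09, 0.12 and 0.09) and were not compared.

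Apoptosis genes with the largest values were BCL2L11 and CASP8. BCL2L11 encodes Bim, a BH3-only activator of cell death, and had 31.8 points moved at 6.22 and 6.89 FPKM. Its largest transcript ENST00000393256 held 49.0% and 51.8%, while the transcript that lost most held 21.7% and 1.97%. CASP8, the initiator caspase of death receptors, had 30.2 points moved at 30.35 and 29.96 FPKM. Its ENST00000432109 was at 4.53 and 0 FPKM, and ENST00000358485 held 34.8% and 43.4%. CASP9 had 9.13 points moved, and TNFRSF10B, the death receptor DR5, 0.53.

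Among genes of the cell cycle and senescence 5 of 32 had 20 points moved or more (15.6%), near the 13.4% over all genes. CDKN1A, the p21 inhibitor of cyclin-dependent kinases, had 1.00 point moved at 73.6 and 133 FPKM, and CDKN1B, the p27 inhibitor, had 0. MDM2, the ubiquitin ligase of p53, had 10.3 points moved, LMNA, the lamin A/C gene, 3.63 and STK11, the kinase upstream of AMPK, 3.94. MDM4 had 30.4 points moved, in which both leading transcripts are incomplete models, and without incomplete transcripts 15.5. AURKA, a mitotic kinase outside these lists, had 36.8 points moved, 15.6 of them between coding sequences.

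Among splicing factors RBM4 itself was highest (26.9 points), then RBM6 (26.2) and MBNL1 (23.1), and SRSF9 was lowest at 0.31. TSC1, a brake on mTOR signalling, had 34.99 points moved at 6.62 and 6.56 FPKM, where ENST00000298552 held 52.2% and 87.2%. Ribosomal proteins had the lowest median of the lists. RPL21 (18.3 points) and RPL3 (16.1), which both share exons with another gene, were the highest of 73. At over 100 FPKM the largest value was in BZW1, a regulator of translation initiation, where ENST00000409226 was at 69.3 and 137 FPKM, 34.6% and 57.4% of the gene. By fragments its share moved was 13.8 points.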

How the data were processed

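Poly-transcript genes were compared between 1 control and 1 RBM4 knockdown library of A549. The authors deposited FPKM per protein-coding transcript; the submitters' processing notes name TopHat, Cufflinks and CASAVA 1.8.2, and the build hg38. Their order, annotation release and strand setting are not given in the sources used here, and depth is unknown, so no counting interval is given. The column named for the line alone was read as control and the column with an added number as knockdown; no label holds the number, so every direction rests on this reading. A second table had 3 value columns that match no label and were not used.

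Identifiers matched GENCODE release 29 for 79605 transcripts (99.5%), of which 53 are typed as nonsense-mediated decay and 83 as retained intron, so shares are among coding transcripts. Of the genes compared, 37.4% of transcripts are tagged incomplete, and 10083 (22.7%) were listed at 0 in both libraries. Structures were available for 7787 genes. Starts or ends within 50 bases were joined. Cassette exons needed 5 FPKM over the event in both libraries. Scripts used Python 3.11.15 with pandas 2.3.3 and were tested on simulated data. The 9 gene lists, the genes and the limits were chosen with earlier results of these data known. Named genes were 22 taken whatever their values, the 15 highest overall and between coding sequences and the 8 exons highest in each direction (20 FPKM, no shared exons), the 2 highest and the lowest of each list, and the 10 highest at 100 FPKM; other names, and the exon background over all genes, were chosen after values were seen. Some are not described, and 1 gene of the lists, counted in the totals, is not reported here.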

Additional observations from a re-analysis of the deposited data

How the results depend on the processing

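No paired analysis was possible because each group has 1 library, and no replicate could be left out. The count of genes with 30 points moved, 344, was 832 with a minimum of 1 FPKM, 43 with 20 FPKM, 199 as shares of fragments, 1045 at a threshold of 20 points and 36 at 50; with shares of fragments 173 of the 344 genes (50.3%) were called again. It stayed within 1.5 times with 0.1 FPKM added (267), transcripts under 1 FPKM left out (287), transcripts under 400 bases left out (314), genes that share exons left out (278) and, chosen after seeing the data, incomplete transcripts left out (232). The median of 7.78 points was 5.01 by fragments. Differing most abundant transcripts, 743, were 1184, 247 and 490 with 1 FPKM, 20 FPKM and fragments. Exchanges between coding sequences, 237, were 598, 28 and 109, and 137 without incomplete transcripts; between first exons, 135, they were 385, 16 and 78; between last exons, 109, they were 350, 13 and 21, and 43 without incomplete transcripts. Cassette exons higher, 33, were 153 and 2 with 1 and 20 FPKM and 17 without incomplete transcripts; lower, 32, they were 158 and 4. In the lists, a minimum of 20 FPKM left 0 of the 1 RBM4 target, 0 of 2 epithelial or mesenchymal splicing genes, 1 of 2 actin genes, 1 of 2 apoptosis regulators, 0 of 2 cell cycle genes, 0 of 1 secreted gene and 0 of 1 energy gene; apoptosis and cell cycle genes had 1 each by fragments and 1 each without transcripts under 1 FPKM. The cause was not tested. Of 86 named genes, 13 moved by 10 points or more by fragments and 10 of 82 did without incomplete transcripts.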

Other observations

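The most complete exchanges of all lay at low levels. SELENOO, a mitochondrial selenoprotein, had 99.7 points moved at about 7 FPKM: ENST00000380903 was at 6.69 and 0.0159 FPKM (control, knockdown), and ENST00000611222 at 0.00426 and 7.47 FPKM. PIGA, an enzyme of GPI anchor synthesis, had 97.3 points moved, with ENST00000542278 at 5.45 and 0.000111 FPKM and ENST00000333590 at 0.000155 and 5.20 FPKM. KAT6A, a histone acetyltransferase, had 88.8 points moved, and 71.8 between last exons but 20.04 between coding sequences.

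Averaged over the genes with structure, the mix differed little in length: the median share-weighted transcript length was 2540 bases in the control and 2552 bases in the knockdown. Weighted length was at least 1.25 times longer in the knockdown in 114 genes and shorter in 78. For the 3′ untranslated region 314 genes were longer and 193 shorter by that ratio, for the 5′ untranslated region 320 and 241, and for the coding sequence 70 and 75. Incomplete transcripts carried a mean of 10.99% and 10.97% of the share over all genes and 27.2% of the share differences. In the 344 genes with 30 points moved they carried 19.6% of the control share and 26.5% of the differences.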
